A study of Sus scrofa with 6 samples.

Results

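Porcine blood monocytes carry a set of lysosomal enzymes that cut proteins and reduce their disulfide bonds before peptides are loaded on class II molecules of the major histocompatibility complex (MHC). The genes described here are legumain (LGMN), the gamma-interferon-inducible lysosomal thiol reductase (IFI30) and the cathepsins, found by their symbols in the array's annotation. The rule found 12 genes on 19 probe sets, out of 13755 annotated genes and 47722 probe sets. They were LGMN, IFI30 and the cathepsin genes CTSA, CTSB, CTSC, CTSD, CTSH, CTSK, CTSL1, CTSO, CTSS and CTSZ. The symbol of 11 of them is still current in RefSeq (Sscrofa11.1). CTSL1 is now a synonym of CTSV there, so the name of the array is kept. No genome build is known for the array's probe sets, and genes are therefore given by symbol without coordinates.

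In antigen-presenting cells, proteins taken up by endocytosis are unfolded and cut in acid endosomes and lysosomes. The invariant chain, which blocks the peptide groove of class II molecules, is removed in steps by proteases of these compartments. Legumain cuts after asparagine, and cysteine cathepsins such as cathepsin S make further cuts. IFI30 opens disulfide bonds of the proteins taken up, so that the proteases can reach these proteins. These roles come mainly from work in human and mouse cells.

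Blood mononuclear cells of 3 pigs, of the Large White Landrace F1 cross and 8 weeks of age, with no experimental treatment named in the labels, had been frozen, thawed and stained for CD14 and CD163. Flow sorting gave 2 monocyte populations per pig, CD14low-CD163high (CD163high) and CD14high-CD163low (CD163low). CD14 helps cells sense bacterial lipopolysaccharide and CD163 takes up haemoglobin bound to haptoglobin. Amplified RNA of each population was hybridised to 1 array, so each group holds 3 arrays, 1 per pig, and the question was how the transcripts of the populations differ.

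Signals are log2 values, on which a difference of 1 is a 2-fold difference, and all differences are CD163high minus CD163low. Errors are the SD over n = 3 arrays for a mean and the standard error (SE) of the limma fit for a difference, and intervals are 95% intervals of that fit. With 3 arrays a group the precision is limited. In such sorted bulk samples, fewer cells of a type and less RNA per cell cannot be told apart. The 6 arrays differed in ways that the gate did not follow. The mean signal of the 69 background control probe sets ran from 2.60 in CD163low of pig 2 to 3.67 in CD163high of pig 3, and 55.2% of the variance lay on the first principal component. The pig of each array is known from the labels alone. EIF1AY, which RefSeq places on chromosome Y, had log2 signals of 9.16, 9.17 and 4.57 in CD163high and 5.09, 9.12 and 6.88 in CD163low cells of pigs 1, 2 and 3. Its signals thus differed by 4.07 between the arrays labelled pig 1 and by -2.31 between those labelled pig 3. This 1 probe set leaves the pairing of these arrays in doubt. From high to low, EIF1AY ranked the arrays as the first principal component did from its lowest value, except for CD163low of pig 2. The member CTSO differed in the same directions, by 2.52 in pig 1 and -1.96 in pig 3. The 2 arrays with the lowest EIF1AY signal were also the 2 with the highest background control signal. What part such differences between arrays have in the EIF1AY values was not tested. Within-pig differences are given by the labels and carry the doubt for pigs 1 and 3, whereas the fit without a block does not use the pairs. Of the 12 genes, between 6 (CD163high of pig 3) and 10 (CD163high of pigs 1 and 2) were brighter than every background control of their array.

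The 12 genes did not behave as 1 block. LGMN and IFI30 had clearly higher means in CD163high monocytes, CTSH, CTSS, CTSB and CTSC had smaller differences in the same direction in all 3 pigs, and the other 6 cathepsin genes had signs that varied between pigs. None passed the test across the array: limma called 0 of 47722 probe sets (0%) at an adjusted p of 0.05, and every member had a limma adjusted p of 1. At an unadjusted p under 0.05 limma listed 3 of the 12 (LGMN, IFI30 and CTSH), all higher in CD163high, beside 1.84% of all genes in that direction. It listed 0 of the 12 as lower, beside 1.43% of all genes. With the pig as a block limma listed the same 3, beside 2.67% of all genes higher in CD163high and 4.02% of all probe sets in either direction. Over all probe sets and both directions, 1235 (2.59%) had such a p.

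The members' count can be read against further shares of the array, with the reservation that the members were chosen with earlier results known. The groups did not overlap, with CD163high higher, for LGMN, IFI30, CTSH and CTSB, which is 4 of 12 beside 3.02% of all genes. With each array centred on its median this was 3 of 12 beside 4.02% of all genes, and 5 members were higher in all 3 pigs in place of the 6 given next. No member had the opposite separation, beside 3.16% of all genes. CD163high was higher in all 3 pigs for 6 of 12, beside 10.5% of all genes, and lower in all 3 for 0, beside 12.5%. The median difference over the 12 was 0.21, and -0.013 over all genes. Without LGMN and IFI30 the median over the 10 cathepsin genes was -0.0012, with 5 higher and 5 lower in CD163high. The medians over the 12 were 0.78, 0.45 and 0.17 in pigs 1, 2 and 3. The count of 3 at an unadjusted p was 5 (4 higher, 1 lower) without CD163high of pig 3, the array with the highest background, beside 5.08% of all genes higher. It was 6 (5 higher, 1 lower) without CD163low of pig 2, beside 2.80% of all genes higher. On the 4 arrays with the lowest background, which leave out CD163high of pig 3 and CD163low of pig 1, limma listed 4 of 12 at an unadjusted p under 0.05, all higher, beside 3.31% of all genes. On these 4 arrays 5 of 12 did not overlap, beside 15.0% of all genes.

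**Figure D1:**
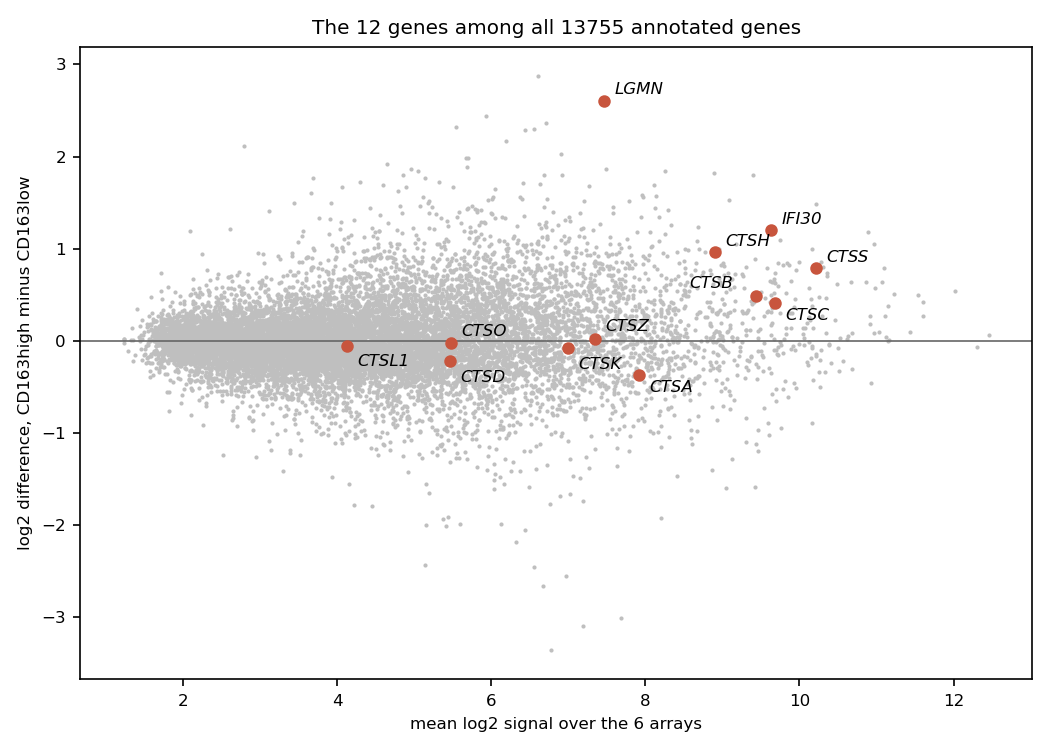
Each grey point is 1 of the 13755 annotated genes, with its mean log2 signal over the 6 arrays on the x axis and its log2 difference, CD163high minus CD163low, on the y axis. The red points are the 12 genes described here: LGMN stands at 2.61 near the upper edge of the cloud, IFI30, CTSH and CTSS follow between 0.79 and 1.20, and CTSA, at -0.37, is the lowest of them.

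Legumain had the largest difference of the 12. It is a cysteine protease of the lysosome that cuts after asparagine and also trims the precursors of several cathepsins into their mature forms. LGMN had log2 signals of 8.95, 8.56 and 8.80 in CD163high and 6.35, 5.32 and 6.82 in CD163low cells of pigs 1, 2 and 3. All 3 CD163high arrays lay above all 3 CD163low arrays, with a gap of more than the whole range within either group (0.39 in CD163high and 1.50 in CD163low). The means were 8.77 ± 0.19 (SD, n = 3) and 6.16 ± 0.77, a difference of 2.61 ± 0.39 (SE), or 6.10-fold with an interval from 3.15 to 11.8. Limma gave an unadjusted p of 0.000473 and an adjusted p of 1.

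The pigs differed in LGMN mainly through their CD163low arrays. The within-pig differences were 2.60, 3.24 and 1.98 in pigs 1, 2 and 3, and pig 2, with the widest one, had the lowest CD163low signal. Among the 13755 genes LGMN ranked 2 by the size of a difference in favour of CD163high and 3 by p. LGMN was read by 1 probe set, whose signal was above the mean of the background controls on all 6 arrays and above every control on 4. It was within the range of the controls in CD163low of pigs 1 and 2. There it had 6.35 and 5.32, against brightest controls of 6.85 and 5.76. Leaving out any pig or array gave differences between 2.19 and 2.94. The unadjusted p lay between 0.000196 and 0.00948 in limma over all 20 alternatives, and the adjusted p between 0.171 and 1.

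**Figure D2:**
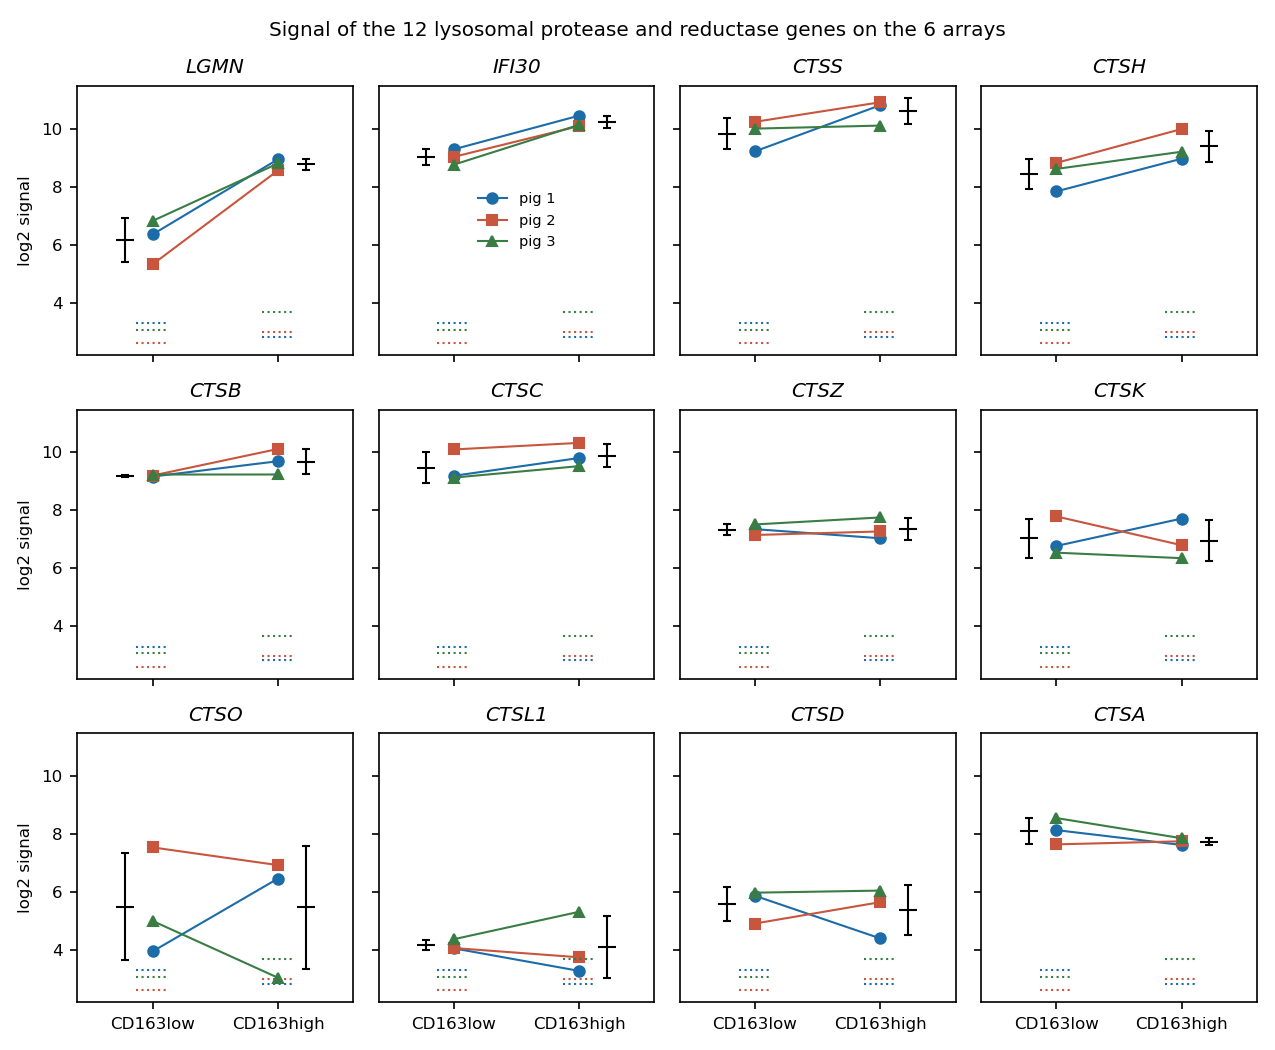
Log2 signal of the 12 genes, each by its brightest probe set, with a line joining the CD163low and CD163high arrays of each pig, and the mean and SD of each group (n = 3) in black at its side. Dotted lines mark the mean background control signal of each array in the colour of its pig. The lines of LGMN and IFI30 climb in all 3 pigs, whereas those of CTSK, CTSO, CTSL1 and CTSD run in different directions.

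IFI30 showed the most even difference over the pigs. It encodes a thiol reductase that works at the acid pH of lysosomes and is known as a gene induced by interferon gamma. Its log2 signals were 10.46, 10.10 and 10.14 in CD163high and 9.29, 9.03 and 8.76 in CD163low cells of pigs 1, 2 and 3. No array of one group reached the other, and the ranges within groups were 0.36 and 0.53. The means were 10.23 ± 0.20 (SD, n = 3) and 9.03 ± 0.27, a difference of 1.20 ± 0.21 (SE), or 2.30-fold with an interval from 1.62 to 3.27.

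The within-pig differences of IFI30 were 1.16, 1.06 and 1.38, with an SD of 0.16, against an SD of 0.63 for those of LGMN. Limma gave an unadjusted p of 0.00107 and an adjusted p of 1, and IFI30 ranked 9 of 13755 genes by p. The single probe set was brighter than every background control on all 6 arrays. Its difference stayed between 1.07 and 1.33 on omission of a pig or an array, and its unadjusted p in limma was at most 0.0127 over the 20 alternatives.

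Cathepsin S had a smaller difference that was carried mostly by pig 1. It is the cysteine protease best known for the last cuts of the invariant chain in B cells and dendritic cells of humans and mice, and unlike most cathepsins it stays active near neutral pH. The brightest CTSS probe set had log2 signals of 10.82, 10.92 and 10.11 in CD163high and 9.22, 10.24 and 10.01 in CD163low cells. The groups overlapped, since CD163low of pig 2 was brighter than CD163high of pig 3. The difference was 0.79 ± 0.35 (SE), with an interval from -0.056 to 1.64, and limma gave an unadjusted p of 0.0625 and an adjusted p of 1.

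Within pigs the CTSS differences were 1.60, 0.68 and 0.11, so that pig 3 showed almost none. CD163high of pig 3, the array with the lowest CTSS signal of its group, also had the highest background control signal of the 6. Without that array the difference was 1.04, and without pig 3 it was 1.14, with limma unadjusted p of 0.0260 and 0.0469. Without pig 1 the difference was 0.39 and the unadjusted p 0.343. What part the background of these arrays has in the difference was not tested beyond these values. A second CTSS probe set was dimmer than the mean background control on all 6 arrays (mean log2 signal 2.36) and gave no level above background.

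Among the other cathepsins that had the same sign in all pigs, CTSH came first. Cathepsin H is a cysteine protease that removes amino acids from the amino end of proteins. Its brightest probe set had log2 signals of 8.97, 9.99 and 9.21 in CD163high and 7.84, 8.82 and 8.61 in CD163low cells. The groups did not overlap, and the lowest CD163high array lay only 0.15 above the highest CD163low array. The difference was 0.97 ± 0.37 (SE), or 1.95-fold with an interval from 1.04 to 3.66, with limma unadjusted p of 0.0399 and adjusted p of 1.

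CTSH was read by 4 probe sets, which did not tell the same story for pig 3. The brightest one and the dimmest one had the same order of arrays, with differences of 0.97 and 0.92. In pig 3 they had 0.59 and 0.51. The other 2 probe sets had -0.70 and -0.33 in pig 3, and overall differences of 0.94 ± 0.79 (SE) and 0.31 ± 0.28. The dimmest probe set also had groups that did not overlap, with an unadjusted p of 0.0451 in limma, against 0.279 and 0.313 for the other 2. The mean of the 4 probe sets gave a difference of 0.78 and an unadjusted p of 0.0786 in limma. CTSH also had an unadjusted p above 0.05 when any 1 pig was left out (from 0.0622 to 0.0908).

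CTSB and CTSC had differences of less than 0.5. Cathepsin B is an abundant cysteine protease of lysosomes, and cathepsin C (dipeptidyl peptidase I) activates the serine proteases of granules. CTSB had log2 signals of 9.69, 10.12 and 9.24 in CD163high and 9.16, 9.20 and 9.23 in CD163low cells, so that the CD163low arrays spanned only 0.070 and the CD163high arrays 0.88. Its groups did not overlap, but in pig 3 the 2 arrays differed by 0.0011. The difference was 0.48 ± 0.25 (SE), with an interval from -0.12 to 1.09 and a limma unadjusted p of 0.0999. It was 0.27 without CD163high of pig 2, and ran from 0.27 to 0.72 on omission of a pig or an array.

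CTSC had log2 signals of 9.81, 10.33 and 9.53 in CD163high and 9.19, 10.10 and 9.13 in CD163low cells. The groups overlapped because both arrays of pig 2 were the brightest, and the difference had the same sign in each pig, at 0.62, 0.23 and 0.40. The difference was 0.41 ± 0.35 (SE), with an interval from -0.42 to 1.25 and a limma unadjusted p of 0.275. It was 0.19 without CD163high of pig 2 and 0.73 without CD163low of pig 2. With the pig as a block, which takes out the level of each animal, the unadjusted p of CTSC was 0.0814 in limma, and the adjusted p stayed 1.

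**Figure D3:**
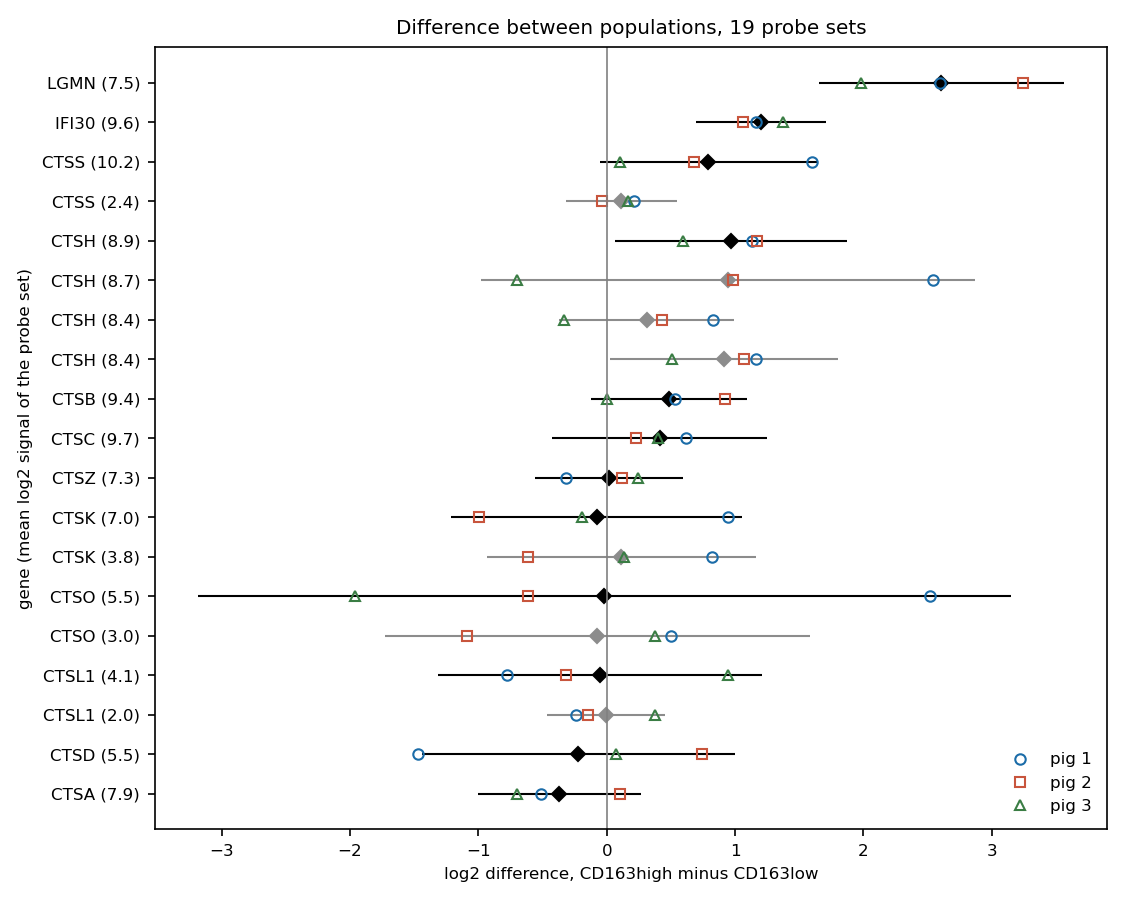
Log2 differences, CD163high minus CD163low, for the 19 probe sets, labelled with the gene and the mean log2 signal of the probe set. Diamonds and bars give the difference and its 95% interval from limma, black for the brightest probe set of a gene and grey for the others, and open symbols give the 3 pigs. Of the brightest probe sets, the bars of LGMN, IFI30 and CTSH lie above 0 and those of the other 9 genes include it.

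The remaining 6 cathepsin genes showed no common direction. CTSZ, a carboxypeptidase also called cathepsin X, had 7.03, 7.27 and 7.75 in CD163high and 7.35, 7.15 and 7.51 in CD163low cells. Its difference of 0.017 ± 0.24 (SE) had an interval from -0.56 to 0.59, which leaves room for a change of up to about 1.51-fold in favour of CD163high. CTSA, a serine carboxypeptidase that also protects lysosomal neuraminidase and beta-galactosidase, had the most negative difference of the 12, at -0.37 ± 0.26. Its log2 signals were 7.62, 7.74 and 7.85 in CD163high and 8.13, 7.64 and 8.55 in CD163low, lower in CD163high in pigs 1 and 3 and higher by 0.11 in pig 2.

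CTSD encodes the main aspartic protease of lysosomes. It had 4.39, 5.64 and 6.04 in CD163high and 5.86, 4.90 and 5.97 in CD163low cells, with within-pig differences of -1.47, 0.74 and 0.073. The difference of -0.22 ± 0.50 (SE) was 0.41 without pig 1, so its sign rested on that animal. CTSD was never under the mean of the background controls, but it was brighter than every control on 0 of the 6 arrays. CTSD and CTSZ ranked the 6 arrays in the same order, from CD163high of pig 3 as the brightest to CD163high of pig 1 as the dimmest.

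CTSK, the collagen-cutting cathepsin of osteoclasts, is the direct neighbour of CTSS in RefSeq's Sscrofa11.1 annotation, with 0 genes between them. It did not share the pattern of CTSS. CTSK had 7.71, 6.79 and 6.35 in CD163high and 6.77, 7.79 and 6.54 in CD163low cells, with within-pig differences of 0.95, -0.995 and -0.19 and a mean difference of -0.079 ± 0.47 (SE). A dimmer CTSK probe set had 0.82, -0.61 and 0.14, the same sign as the brighter one in pigs 1 and 2.

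CTSO, a little-studied cysteine cathepsin, varied most of all members. Its log2 signals were 6.46, 6.92 and 3.03 in CD163high and 3.94, 7.53 and 4.99 in CD163low cells. Its range was 3.89 within CD163high and 3.59 within CD163low, and its within-pig differences of 2.52, -0.61 and -1.96 averaged -0.019 ± 1.31 (SE). The 6 arrays were ranked by CTSO, from high to low, exactly as by the first principal component from its lowest value (-92.3 in CD163low of pig 2) to its highest (97.2 in CD163high of pig 3). The array with the lowest CTSO signal was also the one with the highest background control signal, and there CTSO lay under the mean of the controls. What part these differences between arrays have in the CTSO values was not tested.

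CTSL1 was dim on both of its probe sets. The brighter one had 3.27, 3.74 and 5.31 in CD163high and 4.05, 4.06 and 4.36 in CD163low cells, above the mean background control signal of each array but under its brightest control. Its difference was -0.051 ± 0.52 (SE). The second one lay under the mean of the controls on all 6 arrays.

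Some members lay a small distance apart over the arrays. After each gene was centred on its own mean over the 6 arrays, the root mean square distance was 0.29 between CTSA and CTSZ, 0.32 between CTSB and CTSC, 0.32 between CTSH and CTSS and 0.35 between CTSB and CTSS, all on the log2 scale and over 6 arrays of 3 pigs. CTSL1 and CTSZ lay 0.41 apart, CTSD and CTSZ 0.42, CTSA and CTSD 0.46, CTSC and CTSH 0.42 and CTSB and CTSH 0.43. IFI30 was nearest to CTSB, at 0.49. Genes that vary little can lie close without moving together, and CTSZ had an SD of only 0.37 in CD163high and 0.18 in CD163low. These distances are descriptions of 6 arrays that share animals and array background.

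The same distance was used to find the most similar genes outside the set, among the 8435 genes with a mean signal above 3.67, the highest mean background control signal. For IFI30 the nearest were STOM, a membrane protein gene (0.16), NBR1, an autophagy receptor gene (0.17), ATPAF2, an assembly factor gene of the ATP synthase (0.18), and SLA-DRA, the alpha chain gene of the class II molecule DR (0.19). The root mean square deviation of IFI30 from its own mean was 0.63. These genes were picked as the closest of the 8435, so their small distances follow from the search and are description only. Their differences between the populations were 1.14, 1.01, 1.01 and 1.18, against 1.20 for IFI30. For CTSS they were GMPR2 (0.11), the translation factor gene EIF4A2 (0.13), the myosin gene MYO1E (0.13) and RBM17 (0.13), against 0.56 for CTSS itself. For LGMN they were FBP1, a gluconeogenic enzyme gene (0.69), EHHADH, of peroxisomal fatty acid oxidation (0.69, with a signal under the mean background control on 1 array), PADI2, a peptidylarginine deiminase gene (0.71), and CD163, a sort antigen (0.73). LGMN itself deviated by 1.38, and no gene matched it as closely as those of IFI30 and CTSS did.

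The class II molecules that receive the peptides pointed the same way as LGMN and IFI30. Of 10 listed genes of the chains and their loading, 9 were measured and had a median difference of 0.80, beside -0.013 over all genes, with 8 higher and 1 lower in CD163high. The medians over the 9 were 1.22, 1.06 and 0.38 in pigs 1, 2 and 3. Limma called 0 of the 9, and 3 had an unadjusted p under 0.05, all higher, beside 1.84% of all genes in that direction. The list was chosen with earlier results known. SLA-DRA had a difference of 1.18 ± 0.21 (SE), with 1.50, 1.20 and 0.86 in pigs 1, 2 and 3. SLA-DRB1, the beta chain gene of DR, had 1.80 ± 0.61, and SLA-DMB, part of the peptide-loading molecule DM, 0.84 ± 0.30. SLA-DMA, its partner, had 0.80 ± 0.41 and an unadjusted p of 0.098. CD74, which encodes the invariant chain cut by legumain and cathepsin S, had 0.31 ± 0.61, with signals of 9.17, 8.90 and 10.37 in CD163high and 9.40, 8.04 and 10.06 in CD163low.

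The measured factors that control class II or lysosomal genes did not show such a shift, but many of them were dim. Of 13 listed, 12 were measured, with a median difference of -0.053, 5 higher and 7 lower, and limma listed 0 at an unadjusted p under 0.05 and called 0. TFEB, a master factor of lysosomal genes, had -0.41 ± 0.43 (SE), CIITA, the co-activator of class II genes, -0.15 ± 0.15, RFXAP, a subunit of the class II promoter complex RFX, 0.42 ± 0.48, and CREB1 0.25 ± 0.40. TFEB and CIITA were lower in CD163high in all 3 pigs, which is 2 of 12 beside 12.5% of all genes, and 0 were higher in all 3. The CIITA groups did not overlap, which is 1 of 12 beside 3.16% of all genes lower. Within pigs CIITA differed by -0.19, -0.14 and -0.11. TFEB and RFXAP were brighter than every background control on 0 of the 6 arrays, CIITA on 2 and CREB1 on 3, against 6 for SLA-DRA. Such dim signals limit what the list can show. The level of a factor's transcript does not measure its activity.

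Protease inhibitors, a list of cystatins and serpins, were measured for 5 of 11 genes, with a median difference of 0.17 and no call in limma at either threshold. Cystatin C (CST3), a secreted inhibitor of cysteine cathepsins, had 0.29 ± 0.32 (SE), and CST7, cystatin F, -0.82 ± 0.49. The serpin genes SERPINB1 and SERPINB9, whose products block serine proteases, had 0.26 ± 0.39 and 0.17 ± 0.70. The median of the list is the value of SERPINB9, so it does not describe inhibitors of cysteine cathepsins alone. Genes of sorting to lysosomes and of acidification were measured for 16 of 17, with a median of 0.15 and medians of 0.43, 0.23 and -0.49 in pigs 1, 2 and 3. Limma listed 0 of these 16 at an unadjusted p under 0.05. ATP6V1B2, ATP6V0D1 and ATP6V1A, subunits of the proton pump, had 0.96 ± 0.53, 0.26 ± 0.17 and 0.75 ± 0.59, and IGF2R, the large mannose 6-phosphate receptor, -0.69 ± 0.42.

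Receptors and the oxidase that work in the same compartments were measured for 8 of 10, with a median of 0.23 and medians of -0.28, 0.53 and -0.14 in pigs 1, 2 and 3. CYBB, the catalytic subunit gene of the phagocyte NADPH oxidase, had 10.39, 9.94 and 9.93 in CD163high and 9.46, 9.46 and 9.78 in CD163low cells. Its groups did not overlap, and the difference was 0.52 ± 0.21 (SE) with a limma unadjusted p of 0.0443 and adjusted p of 1. With the pig as a block its limma unadjusted p was 0.0747. The cytosolic subunit gene NCF1 had the opposite sign, at -1.20 ± 0.50 and an unadjusted p of 0.0506, and NCF4 had -0.41 ± 0.27. TLR7, an endosomal receptor for RNA whose protein needs cutting in the endosome to work, had 0.41 ± 0.26.

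Markers of monocytes and of other cells gave the setting for these values. Of 10 monocyte markers 6 had a probe set with that symbol (CD14, CD163, FCGR1A, SIRPA, LYZ and ITGAM), and the 6 had mean log2 signals from 6.50 to 7.20 in CD163high and from 6.54 to 6.92 in CD163low. They were above the mean of the background controls on all arrays, except FCGR1A on 1. The median difference over the 6 was -0.021, with 2 higher and 4 lower in CD163high. The genes of the sort antigens, CD163 and CD14, had 2.03 ± 0.43 (SE) and -1.07 ± 0.47. CD14 was brighter than every background control on only 2 arrays. Dendritic cell markers, whose cells are known for the same enzymes, were measured for 4 of 8 and had a median difference of -0.46. Their medians were -0.79, -0.053 and -0.67 in pigs 1, 2 and 3. They had mean signals from 4.53 to 4.76 in CD163high and from 4.68 to 5.47 in CD163low. On no array was any of the 4 markers brighter than every background control. Of these FCER1A had -0.72 ± 0.25 (SE), an unadjusted p of 0.0250 and an adjusted p of 1 in limma. B cell markers (6 of 8) had a median of -0.42, with mean signals from 5.17 to 6.56 and from 5.71 to 6.75. MS4A1, which encodes CD20, had -1.73 ± 1.05, and BANK1 had 0.74 ± 0.55. T cell markers (7 of 9) had mean signals of 7.47 and 7.43 on the arrays of pig 2, against 4.37 to 5.43 on the other 4. These differences between animals were present in both populations of pig 2. The median over plasmacytoid dendritic cell markers (2 of 6) was 0.39, over TCF4 at 0.78 ± 0.34 and IL3RA at -0.010. The part of other cells in the members' values was not tested.

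Over the 20 alternatives the unadjusted p in limma was under 0.05 in 20 for LGMN and for IFI30, in 10 for CTSH, in 8 for CTSS, in 5 for CTSB and in 2 for CTSC. The adjusted p was never under 0.05, with a lowest value of 0.171, reached by LGMN and IFI30 with array weights.

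**Figure D4:**
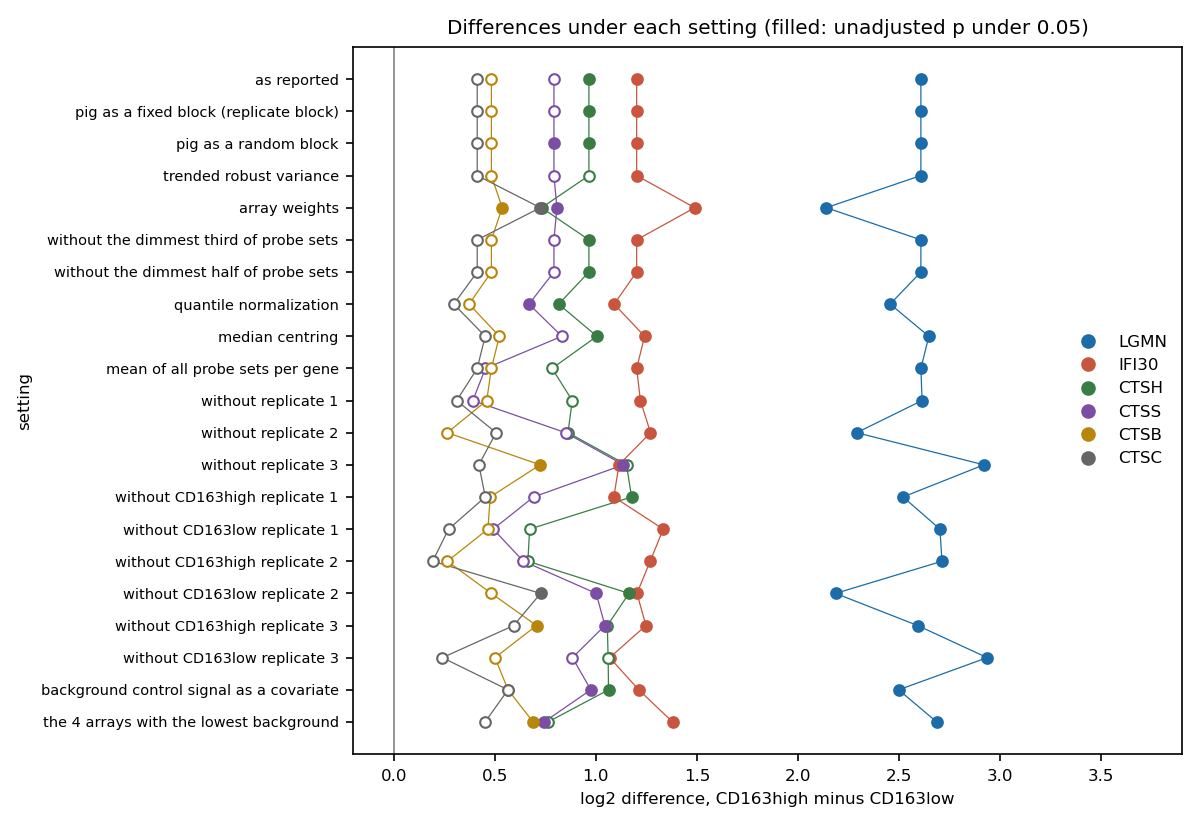
Log2 differences, CD163high minus CD163low, of the 6 members that had the same sign in all pigs, as reported and under 20 alternative settings on the y axis. Filled points have an unadjusted p under 0.05 in limma and open points do not. LGMN runs from 2.14 to 2.94 and IFI30 from 1.07 to 1.49 with all points filled, whereas CTSS runs from 0.39 to 1.14 with mostly open points.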

How the data were processed

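The 12 members and all lists were chosen with earlier results of these data known. The authors deposited 1 table of probe-set intensity values; the submitters' processing notes name RMA and limma, with no versions. RMA equalises arrays and compresses differences of dim probe sets. The first 186 of 47845 deposited rows hold log2 values, and in the other 47659 each log2 lay within 0.000001 of a multiple of 0.0001, so log2 was taken of these only. The 123 array controls were left out; of 47722 probe sets 26426 had 1 gene symbol and 21296 none. For each gene the probe set of highest mean signal was used.

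Limma 3.58.1 in R 4.3.3 (functions lmFit and eBayes) was run two-sided without a block, with p-values adjusted by Benjamini-Hochberg over the whole array, and was tested on simulated data. By the labels, same-numbered arrays come from 1 pig, which EIF1AY puts in doubt for pigs 1 and 3; their deviations from the group means correlated at -0.20, 0.67 and 0.26. No batch is named in the labels. Named were all members, the 4 genes of each pathway list with the smallest p and the 4 genes nearest to LGMN, IFI30 and CTSS; CD74 and the cell type markers were added as names with their values known. The 20 alternatives covered the pairing, the variance model, array weights, dim probe sets, normalization, probe set choice and omission of a pig or array; 2 on the background controls were added after the data were seen.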

Additional observations from a re-analysis of the deposited data

How the results depend on the processing

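With the pig as a block (replicate block) 1917 probe sets (4.02%) had an unadjusted p under 0.05 in limma in place of 1235, still 0 were called, the count of members listed stayed at 3 and no call on a member changed. That count of probe sets was 1875 with the pig as a random block, 8884 with array weights, 4719 with the mean background signal as a covariate, 785 and 604 after removal of the dimmest 0.3333 or 0.5 of probe sets, where fewer were tested, and from 772 to 2400 when a pig or array was left out. No setting called a probe set. The count of members listed was 7 with array weights (6 higher, 1 lower) beside 10.6% of all genes higher, 5 with the background covariate beside 8.85% (1.84% as reported) and 2 to 6 when a pig or array was left out. The median difference over the members was 0.69 with array weights, 0.57 with the background covariate and 0.15 to 0.65 when a pig or array was left out. The cause of these shifts was not tested.

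The 5 cathepsin genes with differences near 0, or set by 1 pig, changed sign. CTSK had 0.65 with array weights, 0.018 with the mean of its probe sets, 0.16 with the background covariate and 0.091 when only the 4 arrays of lowest background were used. CTSO had 1.11 with array weights, 0.020 with median centring, 0.79 with the covariate and 0.43 on the 4 arrays. CTSZ had -0.29 with array weights, -0.051 with quantile normalization, -0.091 with the covariate and -0.18 on the 4 arrays, and CTSL1 had 0.059 with quantile normalization. Leaving out a pig or array gave -0.70 to 0.41 for CTSD, -0.59 to 0.38 for CTSK, -0.65 to 0.37 for CTSL1, -1.29 to 1.20 for CTSO and -0.18 to 0.18 for CTSZ. Signals near the background controls limit CTSL1 and the second probe sets of CTSS, CTSK and CTSO. CTSD was also brighter than every control on 0 of the 6 arrays. The brightest CTSO probe set was so on 3 and lay under the control mean on 1.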

Other observations

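Markers of further cell types were also read on the 6 arrays. All 10 cytotoxic lymphocyte markers had a negative difference, with a median of -0.40, mean log2 signals from 4.86 to 6.06 in CD163high and from 5.37 to 6.27 in CD163low, and 0 with an unadjusted p under 0.05 in limma. CST7, an inhibitor of cathepsin C in such cells, is one of them. Markers of neutrophils and their precursors (4 of 11 measured) had a median of -0.095, in which CSF3R, the receptor gene of granulocyte colony-stimulating factor, had -1.09 and MPO -0.097. Platelet markers (4 of 5) had a median of -0.46. Erythroid markers (3 of 5) had a median of -0.014 and mean signals of 7.75 and 7.46 on the CD163high and CD163low arrays of pig 2, against 3.41 to 3.93 on the other 4 arrays. HBB, a globin gene, stood at 10.78 and 10.50 on those arrays of pig 2.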
